A study of Mus musculus with 8 samples.

Results

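The cyclins, cyclin-dependent kinases (CDKs), their inhibitors and activators, the retinoblastoma proteins and the E2F, FOXM1 and B-MYB transcription factors were examined as 39 named genes in the RNA-seq table of MLO-Y4 cells. All 39 were found by gene symbol among the 16369 genes of the table, and all 39 passed the filter on low counts that left 12227 genes for testing. They held 53 to 8196 estimated reads per library. The 8 libraries came from MLO-Y4, an established mouse osteocyte line, that was seeded in fluid chamber slides and put under flow, with 4 cycles of shear stress at 2 Pa. In 4 of them the long non-coding RNA H19 was silenced with an antisense oligonucleotide (ASO), and 4 were controls without silencing, labelled WT for genotype and NC in the deposited columns. The labels do not say what the controls were treated with, and all 8 libraries were flowed, so the comparison describes the ASO under flow. MLO-Y4 was derived from a mouse that carried SV40 large T antigen under the osteocalcin promoter, and large T antigen binds and inactivates the retinoblastoma proteins, which limits the line as a model of G1 control.

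Cell division is driven by CDKs, which act only with a cyclin partner. D-type cyclins with CDK4 or CDK6, and then E-type cyclins with CDK2, phosphorylate the retinoblastoma proteins and release E2F factors, which switch on genes for DNA replication. Cyclin A and the B-type cyclins with CDK1 drive G2 and mitosis, and their genes are switched on late in the cycle by B-MYB and FOXM1. Osteocytes in bone have left the cell cycle, whereas the MLO-Y4 line divides in culture.

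With the ASO, 12 of the 39 genes were higher and 3 were lower than in controls, and 24 did not pass the test (quasi-likelihood F test of edgeR, p adjusted over all tested genes by Benjamini-Hochberg, threshold 0.05, n = 4 per group). Of all tested genes, 7.11% were called higher and 7.53% lower, against 30.8% and 7.69% of the 39. The share of lower calls among the 39 was therefore near that of all genes. The genes that rose were Ccna2, Ccnb1, Ccnb2, Ccnd3, Cdk1, Cdk6, Cdc25b, Cdc25c, Cdkn2d, E2f4, E2f8 and Foxm1, by 1.17-fold to 1.54-fold, and those that fell were Cdc25a, Wee1 and Cdkn1a. The median log2 fold change of the 39 was 0.15, against 0.0026 over all tested genes. Among 13 genes listed for G2 and mitosis 7 were higher and 0 lower (median 0.39), and among 12 listed for G1 and its exit 2 were higher and 1 was lower (median 0.09). Wee1, which encodes an inhibitory kinase of CDK1 and fell, is in neither list, although the related Pkmyt1 is in that of G2 and mitosis, so the count of 0 lower rests on that placement. The difference between these lists was not tested. No sign of a called gene changed in any of 24 alternative settings, but 7 of the 15 calls ended when 1 of certain libraries was left out, and these are named below. In bulk RNA, more cells in a phase and more RNA per cell cannot be told apart.

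**Figure D1:**
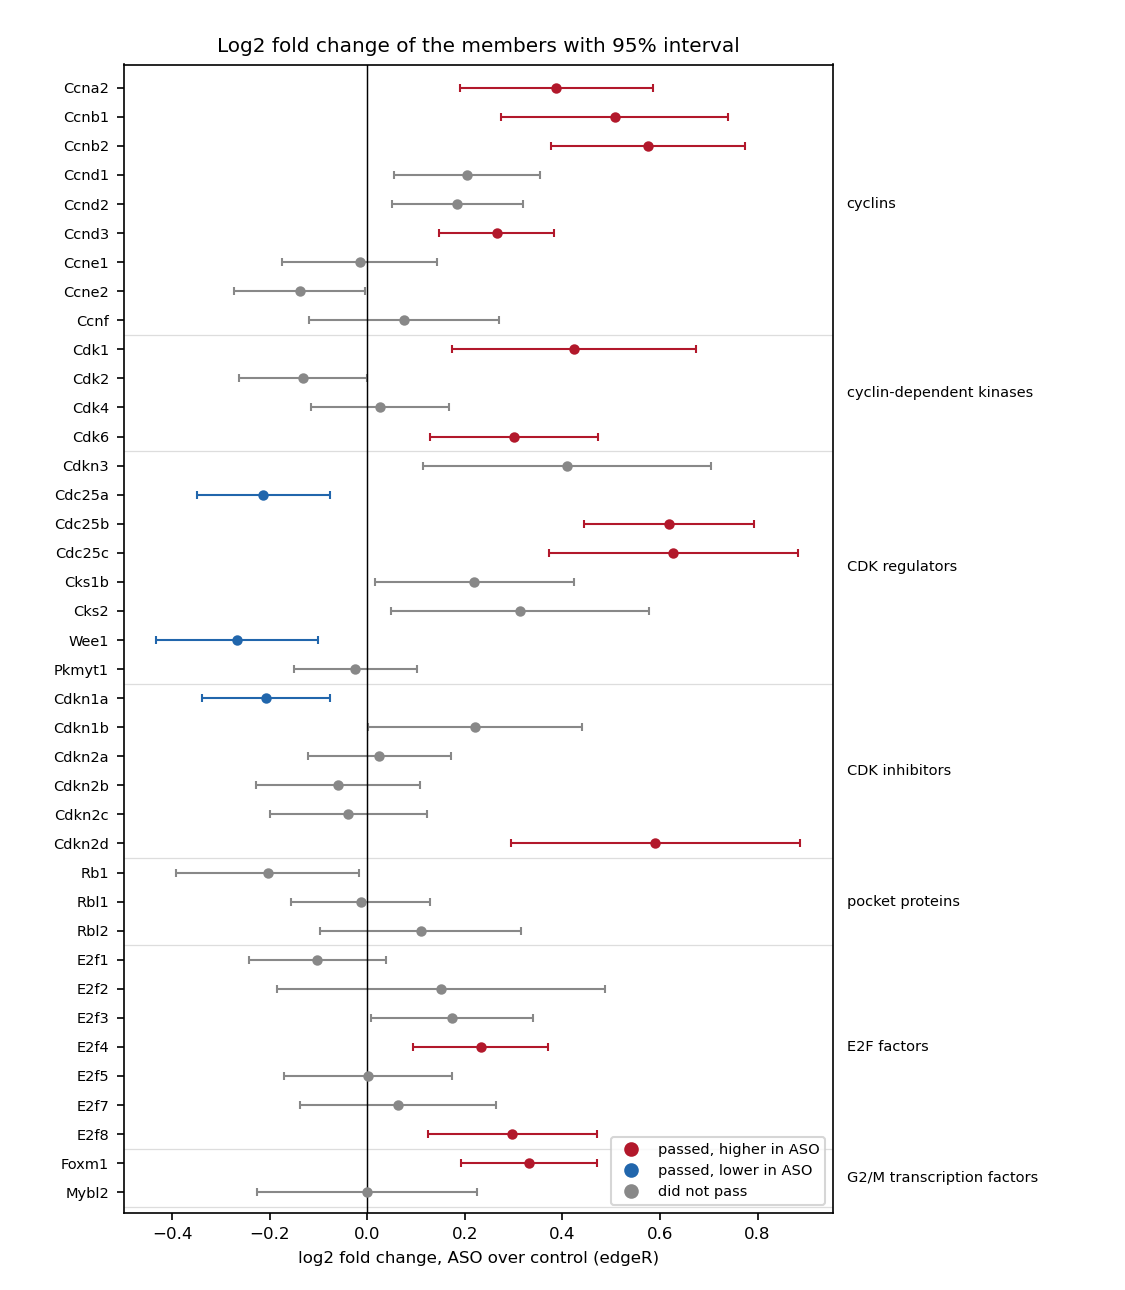
Log2 fold change of each of the 39 genes, ASO over control, from edgeR, with its 95% interval (horizontal axis, log2 scale), grouped by role. Red points passed the test and were higher in ASO (12), blue points passed and were lower (3), and grey points did not pass (24).

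The libraries held 19501980 to 19914213 estimated reads. H19 is not analysed here, so the silencing could not be read from its level. Osteocyte markers stood at summed levels of 1079 to 1187 TPM (transcript abundance scaled to gene length and library size) in ASO libraries and 1086 to 1205 TPM in control libraries, with Pdpn and Gja1 well expressed in all, Dmp1 at no more than 1.61 TPM, and the late osteocyte markers Sost and Mepe at 0 to 2 reads per library. Of 9 tested osteocyte markers 2 were higher and 3 lower, with a median log2 fold change of -0.18. Pdpn and Cd44 rose (0.22 and 0.19), and Dstn and Fbln7 fell (-0.25 and -0.46). Dmp1 also fell (-1.46, adjusted p = 0.012), with 5 to 49 reads per library. Of 8 tested osteoblast markers 2 were higher and 2 lower, with summed levels of 21660 to 24692 TPM in ASO libraries and 21560 to 22323 TPM in control libraries. Most of that sum was Spp1, at a mean of 20236 TPM with the ASO and 18722 TPM in controls. Sp7 and Alpl rose (log2 fold changes 0.43 and 0.37). The osteocalcin genes Bglap (-0.60, adjusted p = 0.018) and Bglap2 (-0.72, adjusted p = 0.0037) fell. Bglap averaged 80.7 TPM with the ASO and 124 TPM in controls, and Bglap2 209 and 350 TPM. Of markers of other cell types, 3 of 3 tested chondrocyte genes were lower with the ASO, with a summed level of 68.8 to 89.98 TPM in ASO libraries and 95.8 to 141 TPM in control libraries. Most of that sum was Sox9, at a mean of 77.5 TPM with the ASO and 107 TPM in controls. Col10a1 averaged 4.72 and 9.17 TPM in the same order. Col2a1 was near the floor, at 0.18 and 0.39 TPM with 10 to 26 reads per library. Of 6 tested genes of monocytes, macrophages and osteoclasts 1 was higher and 1 lower (135 to 168 TPM in ASO libraries, 124 to 181 TPM in control libraries), and Ptprc, which marks all leukocytes, was at most 0.21 TPM. Most of this sum was Ctsk, which did not pass, at a mean of 97.3 TPM with the ASO and 116 TPM in controls. The gene that rose was Cd68, which encodes a lysosomal protein abundant in macrophages, at 29.8 ± 3.33 TPM in ASO libraries and 10.4 ± 2.07 TPM in control libraries (SD, n = 4, log2 fold change 1.54 ± 0.13, adjusted p = 1.7e-05), a larger change than in any of the 39 genes. The gene that fell was Ocstamp, at 0.675 ± 0.164 TPM in ASO libraries and 1.40 ± 0.419 TPM in control libraries, and the macrophage receptor gene Csf1r did not pass (0.68 ± 0.22, adjusted p = 0.052). Adipocyte genes summed to 11.1 to 13.6 TPM in ASO libraries and 10.8 to 14.8 TPM in control libraries, and endothelial genes to at most 0.54 TPM. The part of these cell markers in the cell cycle values was not tested. The labels do not state whether replicates are separate cultures, and if they are not, the p-values cover technical spread alone.

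Promoter sequences are shown for 5 genes that rose and 1 that fell, because genes of G2 and mitosis are known to carry CCAAT boxes, which bind NF-Y, and CHR elements, which bind the MuvB complex, whereas genes of the G1/S switch carry E2F sites. They were picked by hand and do not stand for all genes that rose. Ccnd3, Cdk6 and Cdkn2d, which rose and had a promoter window but are not shown, hold no CHR letters. Each sequence shown runs from 200 bases before to 20 bases after a RefSeq start, 5′ to 3′ on the gene's strand, in GRCm38.p6. Capitals mark the letters of a CCAAT box (CCAAT), a CHR (TTTGAA or TTCGAA) or an E2F site (the letters TTCCCGC, those of TTGGCGC, or those of TTCGCGC), each read on both strands, so that a match on the other strand appears as its reverse complement. Other forms of these elements were not searched, so a sequence without capitals for an element may still hold another form of it.
Ccnb1: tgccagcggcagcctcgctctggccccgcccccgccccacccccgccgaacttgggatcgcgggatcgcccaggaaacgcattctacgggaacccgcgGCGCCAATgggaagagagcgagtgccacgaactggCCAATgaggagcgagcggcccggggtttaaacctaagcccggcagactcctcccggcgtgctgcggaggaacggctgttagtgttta
Ccnb2: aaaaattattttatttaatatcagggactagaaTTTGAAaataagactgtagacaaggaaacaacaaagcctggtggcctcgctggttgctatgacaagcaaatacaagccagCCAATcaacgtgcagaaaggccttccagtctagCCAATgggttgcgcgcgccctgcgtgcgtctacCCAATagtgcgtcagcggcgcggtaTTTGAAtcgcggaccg
Cdk1: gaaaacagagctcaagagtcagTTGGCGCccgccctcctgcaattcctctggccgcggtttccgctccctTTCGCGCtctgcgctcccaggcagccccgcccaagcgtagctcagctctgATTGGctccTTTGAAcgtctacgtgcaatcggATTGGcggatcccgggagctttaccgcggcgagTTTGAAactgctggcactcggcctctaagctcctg
Cdc25b: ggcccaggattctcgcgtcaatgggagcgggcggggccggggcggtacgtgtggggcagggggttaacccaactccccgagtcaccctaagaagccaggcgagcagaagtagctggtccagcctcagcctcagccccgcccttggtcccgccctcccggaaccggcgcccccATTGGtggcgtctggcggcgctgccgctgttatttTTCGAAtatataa
E2f8: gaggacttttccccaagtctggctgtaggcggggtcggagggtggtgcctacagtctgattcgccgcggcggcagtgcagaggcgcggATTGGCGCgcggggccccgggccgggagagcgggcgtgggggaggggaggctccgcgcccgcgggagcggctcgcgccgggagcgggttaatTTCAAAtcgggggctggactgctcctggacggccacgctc
Cdc25a: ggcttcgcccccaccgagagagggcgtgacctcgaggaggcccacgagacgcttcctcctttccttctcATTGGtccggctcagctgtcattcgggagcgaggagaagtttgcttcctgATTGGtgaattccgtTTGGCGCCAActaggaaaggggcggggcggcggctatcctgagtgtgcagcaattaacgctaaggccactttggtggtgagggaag
The windows are chr13:100786467-100786686 for Ccnb1, chr9:70421535-70421754 for Ccnb2, chr10:69352893-69353112 for Cdk1 and chr7:48881577-48881796 for E2f8, all on the minus strand, and chr2:131186748-131186967 for Cdc25b and chr9:109875379-109875598 for Cdc25a on the plus strand. For Ccnb1, Ccnb2 and Cdk1 the start is the outer end of the annotated gene, whereas for Cdc25b, E2f8 and Cdc25a it lies inside the gene, downstream of that end. Ccnb2 holds 3 CCAAT boxes that start 33 bases apart, and Ccnb1 and Cdk1 each hold 2 that start 32 bases apart. Cdc25a, which fell, also holds 2 CCAAT boxes, and Cdc25b and E2f8 hold 1 each. CHR letters occur in Ccnb2, Cdk1, Cdc25b and E2f8, and E2F letters in Ccnb1, Cdk1, E2f8 and Cdc25a. In Ccnb1 and E2f8 the E2F letters overlap a CCAAT box, and in Cdc25a the pair of E2F matches share letters on opposite strands.

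Of the 39 genes, 28 had at least 1 RefSeq promoter window of 250 bases before to 50 after the start, 34 windows in all, so that a gene could match in any of its windows. The 11 others were Ccnd1, Cdc25c, Ccne2, E2f4, Foxm1, E2f5, Rb1, Pkmyt1, Wee1, Ccnd2 and Ccna2. CCAAT letters were found in 7 of the 8 genes that rose and had a window, in 1 of 2 that fell and in 11 of 18 that did not pass, against 37.4% of all 32851 windows. CHR letters were found in 4 of 8 that rose, 0 of 2 that fell and 7 of 18 that did not pass, against 19.2% of all windows, and E2F letters in 3 of 8, 1 of 2 and 7 of 18 in the same order, against 8.07%. CCAAT letters were thus common among these genes whether or not they passed the test, as in Ccnf, Cks1b, Cks2 and Cdkn3. A match is a run of letters and not a shown binding site.

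The mitotic cyclins were all higher with the ASO except Ccnf. Ccnb2, which encodes cyclin B2, a partner of CDK1 (gene 12442, chromosome 9, 70407689 to 70421554, GRCm38.p6), stood at 84.0, 99.6, 107 and 104 TPM in ASO libraries 1 to 4, against 60.3, 61.4, 74.4 and 72.4 TPM in control libraries 1 to 4. All 4 ASO libraries lay above all 4 control libraries. Its log2 fold change, computed from the counts as all those below, was 0.58 ± 0.09 (SE, adjusted p = 0.0016), a 1.49-fold rise. Ccnb1, the cyclin B1 gene (gene 268697, chromosome 13, 100778739 to 100786486), stood at 59.2, 69.0, 71.9 and 84.9 TPM in ASO libraries and at 48.0, 43.5, 56.7 and 55.4 TPM in control libraries. The groups did not overlap, though the lowest ASO library was close to the highest control library, and the log2 fold change was 0.51 ± 0.11 (adjusted p = 0.0077). Ccna2, the gene of cyclin A2, which acts in S phase and G2 (gene 12428, chromosome 3, 36564865 to 36573038), had 79.2, 86.9, 98.6 and 107 TPM with the ASO, against 69.7, 66.5, 75.5 and 76.5 TPM in controls. These groups did not overlap either, and the log2 fold change was 0.39 ± 0.09 (adjusted p = 0.013). The calls of all 3 genes held without any single library. Ccnf, which encodes a cyclin that is a subunit of a ubiquitin ligase rather than a CDK partner, averaged 25.1 ± 2.04 TPM in ASO libraries and 24.2 ± 2.61 TPM in control libraries (SD, n = 4) and did not pass (log2 fold change 0.08, 95% interval -0.12 to 0.27, adjusted p = 0.61).

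**Figure D2:**
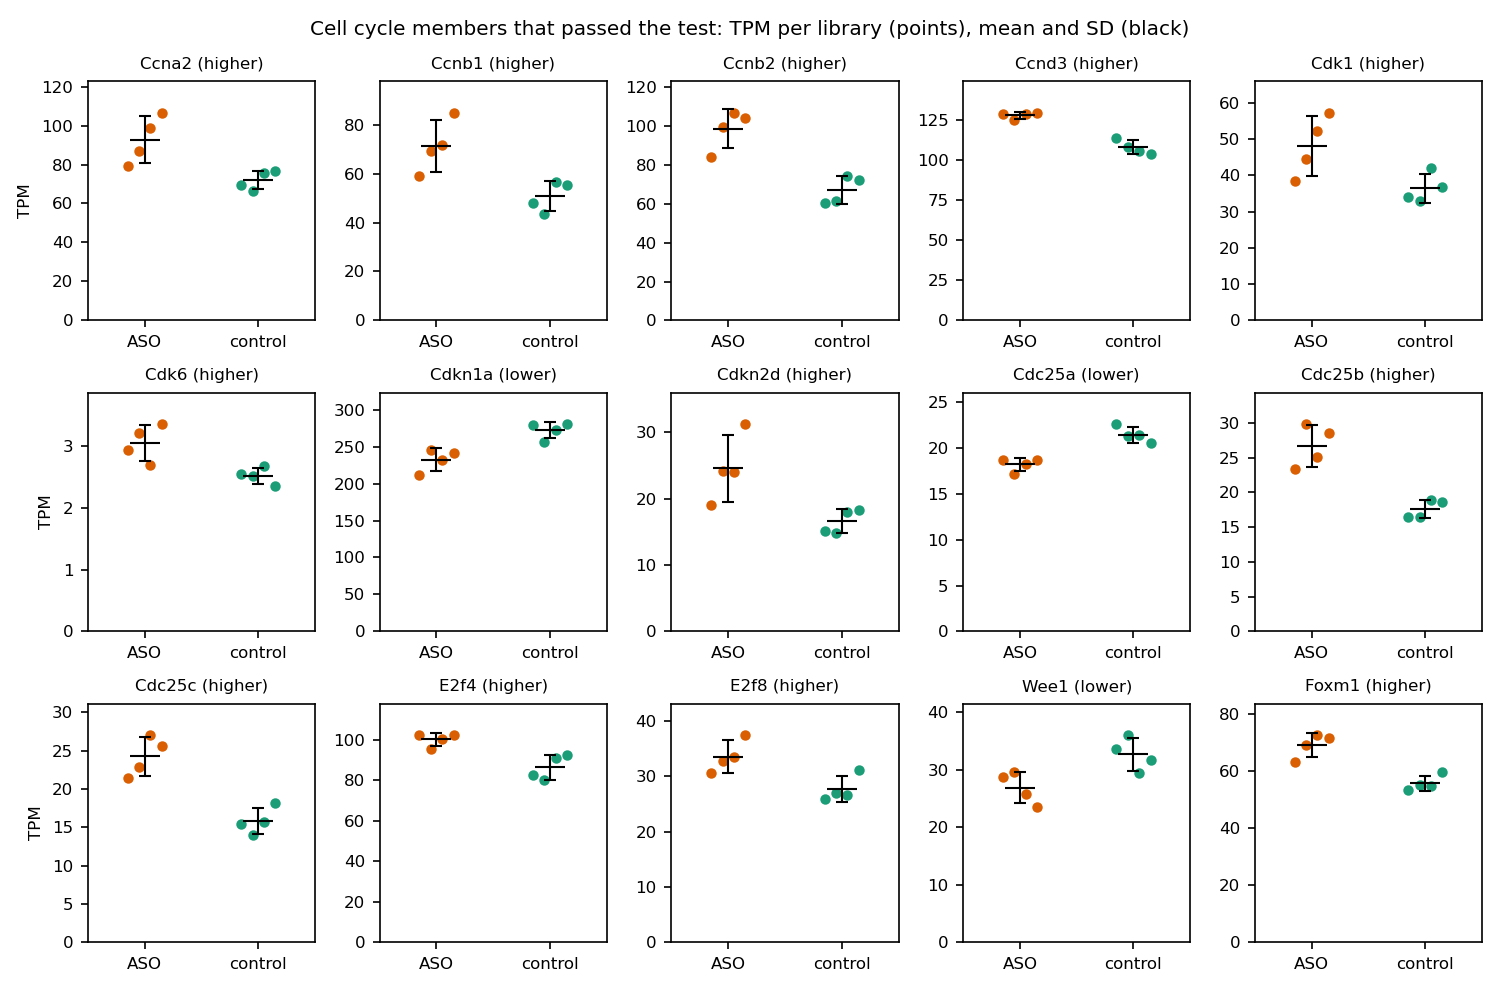
TPM of the 15 genes that passed the test in each ASO and control library (points, replicates 1 to 4 side by side), with the mean and SD of 4 libraries in black and a vertical axis from 0 in each panel. The groups do not overlap in the panels marked higher other than Cdk1 and E2f8, nor in the panels marked lower other than Wee1.

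Of the G1 cyclin genes Ccnd3 alone passed the edgeR test, while Ccnd1 and Ccnd2 were just above the threshold. Ccnd3, which encodes a D-type cyclin that activates CDK4 and CDK6 (gene 12445, chromosome 17, 47505051 to 47599689), had 129, 125, 129 and 129.7 TPM in ASO libraries, against 114, 108, 106 and 104 TPM in control libraries. The ASO libraries differed little among themselves and all lay above the controls (log2 fold change 0.26 ± 0.06, adjusted p = 0.0066). Its call held without any single library, but not in samples 1 and 2 alone (adjusted p = 0.12, and 1.2e-04 to 0.12 over all alternatives). Ccnd1, the cyclin D1 gene, had 45.04, 50.3, 44.3 and 52.6 TPM with the ASO and 38.8, 41.3, 43.8 and 45.2 TPM in controls. The groups overlapped in TPM (log2 fold change 0.20, 95% interval 0.05 to 0.35, adjusted p = 0.065). On CPM (counts scaled to library size, without gene length) all ASO libraries of Ccnd1 lay above all controls. Ccnd2 averaged 26.7 ± 0.96 TPM in ASO libraries and 23.7 ± 1.79 TPM in control libraries without overlap (0.18, 0.05 to 0.32, adjusted p = 0.063). Both passed with DESeq2 (adjusted p = 0.049 for Ccnd1 and 0.047 for Ccnd2). DESeq2 called 15 of the 39 genes higher and 3 lower, against 992 higher and 1031 lower of all 12227 tested genes. Ccne1, whose cyclin E1 activates CDK2 at the start of S phase, stood at 46.6, 42.3, 46.8 and 51.5 TPM in ASO libraries and at 47.3, 46.8, 51.8 and 46.2 TPM in control libraries. The values of both groups were interspersed, with a log2 fold change of -0.02 (95% interval -0.18 to 0.14, adjusted p = 0.91). Ccne2, the other cyclin E gene, lay at 19.1 to 21.5 TPM in ASO libraries, below the 22.9 to 23.6 TPM of the controls, and did not pass (-0.14, -0.27 to -0.0042, adjusted p = 0.15).

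Of the CDK genes, Cdk1 and Cdk6 were higher and Cdk2 and Cdk4 did not pass. Cdk1, the kinase of mitosis (gene 12534, chromosome 10, 69335146 to 69352912), had 38.4, 44.5, 52.3 and 57.3 TPM in ASO libraries, against 34.1, 33.0, 41.9 and 36.8 TPM in control libraries. ASO library 1 lay below control library 3, so the groups overlapped, and the log2 fold change was 0.42 ± 0.12 (adjusted p = 0.027). The call ended without ASO replicate 3 or 4 or control replicate 1, 2 or 4, and the adjusted p was 2.3e-05 to 0.11 over all alternatives. It also ended with the robust form of edgeR, on log2(TPM + 0.1) and on log2(TPM + 1) with no filter. Cdk6, a G1 kinase (gene 12571, chromosome 5, 3341004 to 3531008), was near the bottom of the 39 in level, at 2.93, 3.21, 2.69 and 3.36 TPM with the ASO and 2.54, 2.51, 2.67 and 2.35 TPM in controls. The lowest ASO library was just above the highest control library, and the log2 fold change was 0.30 ± 0.08 (adjusted p = 0.023). Without ASO replicate 4 or control replicate 2 or 4 the call ended, as it did on each log2 TPM scale, and the adjusted p was 0.0079 to 0.16 over all alternatives. Cdk4, the other kinase of D-type cyclins, was far more abundant per length, at 513, 486, 506 and 558 TPM in ASO libraries and 501, 483, 526 and 548 TPM in control libraries. The groups covered nearly the same range, and the log2 fold change was 0.02 (95% interval -0.12 to 0.17, adjusted p = 0.83). Cdk2, the partner of cyclins E and A, had 47.8, 45.2, 47.7 and 51.7 TPM with the ASO, against 53.5, 55.6, 53.0 and 52.4 TPM in controls. The ASO libraries all lay below the controls in TPM, whereas the groups overlapped on CPM. The test, which uses scaled counts, did not pass (-0.13, 95% interval -0.26 to -0.0016, adjusted p = 0.16).

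The CDC25 phosphatases, which remove inhibitory phosphates from CDKs, moved in opposite directions. Cdc25b, which acts at entry into mitosis (gene 12531, chromosome 2, 131186436 to 131198511), had the smallest adjusted p of the 39 and stood at 23.4, 29.9, 25.1 and 28.6 TPM in ASO libraries, against 16.5, 16.5, 18.9 and 18.7 TPM in control libraries. Every ASO library was above every control (log2 fold change 0.62 ± 0.08, adjusted p = 4.1e-04). Cdc25c, another phosphatase of G2 and mitosis (gene 12532), had the largest fold change, 1.54-fold, with 21.4, 22.9, 27.1 and 25.6 TPM with the ASO and 15.5, 13.99, 15.7 and 18.2 TPM in controls. These groups were also separate (0.63 ± 0.12, adjusted p = 0.0041), and both calls held without any single library. Cdc25a, which acts from the start of S phase (gene 12530, chromosome 9, 109875518 to 109893895), was lower, at 18.7, 17.1, 18.3 and 18.7 TPM in ASO libraries, against 22.6, 21.2, 21.4 and 20.5 TPM in control libraries. The groups did not overlap, and the log2 fold change was -0.21 ± 0.06 (adjusted p = 0.038). That call held only without ASO replicate 1 among the fits that left out 1 library, with an adjusted p of 0.014 to 0.29 over all alternatives. It ended without each of ASO replicates 2, 3 and 4 and control replicates 1, 2, 3 and 4, and with scaling by library size alone.

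Wee1, which encodes the kinase that places the inhibitory phosphate on CDK1 (gene 22390, chromosome 7, 110122059 to 110143299), was also lower. It had 28.8, 29.6, 25.8 and 23.6 TPM in ASO libraries, against 33.7, 36.1, 29.4 and 31.8 TPM in control libraries. ASO library 2 lay slightly above control library 3 in TPM, whereas on CPM all ASO libraries lay below all controls. The log2 fold change was -0.27 ± 0.08 (adjusted p = 0.035). The call ended without ASO replicate 3 or 4 or control replicate 1, 2 or 4, and on each log2 TPM scale. The adjusted p was 0.0016 to 0.11 over all alternatives. Pkmyt1, the related membrane-bound kinase, averaged 88.7 ± 1.96 TPM with the ASO and 90.2 ± 3.30 TPM in controls (SD, n = 4), with a log2 fold change of -0.03 (95% interval -0.15 to 0.10, adjusted p = 0.81). The CDK-binding proteins Cks1b (249.98 to 336 TPM in ASO libraries, 245 to 286 TPM in control libraries) and Cks2 (69.2 to 102 TPM, and 59.9 to 80.3 TPM in controls) overlapped between the groups and did not pass (log2 fold changes 0.22 and 0.31, adjusted p = 0.14 and 0.10). Cdkn3, which encodes a phosphatase that acts on CDKs, lay at 68.8 to 111 TPM with the ASO and 58.3 to 77.2 TPM in controls (0.41, 95% interval 0.11 to 0.70, adjusted p = 0.061).

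Among the CDK inhibitors 1 rose, 1 fell and 4 did not pass. Cdkn1a, which encodes p21, an inhibitor induced by p53 (gene 12575, chromosome 17, 29090979 to 29100722), had 211, 246, 231 and 241 TPM in ASO libraries, against 279.7, 256, 272 and 281 TPM in control libraries. All ASO libraries were below all controls, with a log2 fold change of -0.21 ± 0.06 (adjusted p = 0.036). The call ended without ASO replicate 1 or 3 or control replicate 1, 3 or 4, and with scaling by library size alone, and the adjusted p was 0.0063 to 0.096 over all alternatives. Cdkn2d, which encodes p19 of the INK4 family, inhibitors of CDK4 and CDK6 (gene 12581, chromosome 9, 21288459 to 21291421), had 19.1, 24.1, 24.0 and 31.3 TPM with the ASO and 15.2, 14.8, 18.0 and 18.3 TPM in controls. The groups were separate, with ASO library 4 well above the other ASO libraries, and the log2 fold change was 0.59 ± 0.14 (adjusted p = 0.012), a call that held without any single library. The other INK4 genes did not pass. Cdkn2a, whose locus encodes p16 and the p53 activator ARF, counted here as 1 row, was the most abundant of the 39, at 893, 1062, 915 and 1057 TPM in ASO libraries and 926, 956, 1004 and 1019 TPM in control libraries. ASO libraries took both the lowest and the highest values, and the log2 fold change was 0.02 (95% interval -0.12 to 0.17, adjusted p = 0.84). Cdkn2b (32.2 to 36.9 TPM with the ASO, 33.7 to 41.7 TPM in controls) and Cdkn2c (57.6 to 64.0 TPM, and 60.1 to 73.5 TPM in controls) had log2 fold changes of -0.06 and -0.04. Cdkn1b, the gene of the inhibitor p27, stood at 12.7, 18.2, 12.9 and 13.7 TPM with the ASO and at 13.5, 12.5, 12.3 and 11.5 TPM in controls. Its high value was in ASO library 2 alone, and the log2 fold change of 0.22 did not pass (95% interval 4.9e-04 to 0.44, adjusted p = 0.17).

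None of the 3 retinoblastoma family genes passed. Rb1, whose protein holds E2F factors inactive, had 5.63, 6.06, 5.02 and 5.74 TPM in ASO libraries, against 7.31, 6.62, 6.64 and 5.65 TPM in control libraries. Only control library 4 fell within the ASO range (log2 fold change -0.20, 95% interval -0.39 to -0.02, adjusted p = 0.13). Rbl1 (15.6 to 19.99 TPM with the ASO, 18.1 to 19.3 TPM in controls) and Rbl2 (9.44 to 13.4 TPM, and 8.96 to 11.2 TPM in controls), which encode the other pocket proteins, had log2 fold changes of -0.01 and 0.11.

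Of 7 E2F genes, E2f4 and E2f8 were higher. E2f4, a factor that represses cell cycle genes in resting cells together with the pocket proteins (gene 104394, chromosome 8, 105297663 to 105305370), had 102, 95.5, 100.1 and 102 TPM in ASO libraries, against 82.4, 80.0, 90.8 and 92.5 TPM in control libraries. All ASO libraries were above the controls (log2 fold change 0.23 ± 0.06, adjusted p = 0.028). However, the call ended without ASO replicate 3 or 4 or control replicate 1 or 2, and on log2(TPM + 1) with no filter. The adjusted p was 0.0020 to 0.093 over all alternatives. E2f8, an atypical E2F that represses transcription (gene 108961, chromosome 7, 48866429 to 48882073), had 30.5, 32.7, 33.4 and 37.5 TPM with the ASO and 25.9, 26.9, 26.6 and 31.1 TPM in controls. Control library 4 lay above ASO library 1, and the log2 fold change was 0.30 ± 0.08 (adjusted p = 0.026). The call ended without ASO replicate 3 or 4 or control replicate 1, 2 or 3, and on log2(TPM + 1) with no filter. The adjusted p was 0.0014 to 0.078 over all alternatives. E2f1, an activator of S phase genes, stood at 47.5, 46.1, 52.4 and 51.8 TPM in ASO libraries and at 54.2, 53.6, 52.0 and 55.8 TPM in control libraries. ASO libraries 1, 2 and 4 were below all controls and ASO library 3 was within their range (log2 fold change -0.10, 95% interval -0.24 to 0.04, adjusted p = 0.31). The activators E2f2 and E2f3, the repressor E2f5 and the atypical E2f7 had log2 fold changes of 0.15, 0.17, 0.0013 and 0.06 and overlapped between the groups. E2f2 was the lowest of the 39 genes, at 1.18 to 1.36 TPM in ASO libraries and 1.01 to 1.34 TPM in control libraries.

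Foxm1 and Mybl2 encode FOXM1 and B-MYB, factors that switch on genes of G2 and mitosis, and of these only Foxm1 passed. Foxm1 (gene 14235, chromosome 6, 128362994 to 128375886) had 63.1, 69.2, 72.7 and 71.4 TPM in ASO libraries, against 53.5, 55.3, 54.7 and 59.5 TPM in control libraries. The groups did not overlap, and the log2 fold change was 0.33 ± 0.07 (adjusted p = 0.0050), a call that held without any single library. Mybl2 lay at 17.7 to 23.1 TPM with the ASO and 18.5 to 24.0 TPM in controls, with a log2 fold change of -7.6e-04 (95% interval -0.23 to 0.23, adjusted p = 1.00). Whether the changes of Foxm1 and Mybl2 differ from each other was not tested.

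The 8 libraries also differed within the groups. Over all tested genes, samples 1 and 2 stood apart from samples 3 and 4 in both groups along the second principal component (17.1% of the variance), a division that is not in the labels. All 13 genes listed for G2 and mitosis had a higher mean TPM in ASO libraries 3 and 4 than in ASO libraries 1 and 2, and all 13 also had a higher mean in control libraries 3 and 4 than in control libraries 1 and 2. The share of all tested genes with such a difference was not counted. All 15 called genes kept their sign within each part. In samples 1 and 2 the log2 fold changes of Ccnb2, Cdc25b and Cdk1 were 0.59, 0.68 and 0.30, and in samples 3 and 4 they were 0.57, 0.56 and 0.52. Called in each part alone, with the same sign, were 8 genes, namely Ccna2, Ccnb1, Ccnb2, Cdk1, Cdkn2d, Cdc25b, Cdc25c and Foxm1. How many of all tested genes were called in both parts was not counted, so this count has no background share. With the division as a term, 17 of the 39 genes were higher, against 12.8% of all tested genes, and 3 were lower, against 12.9%. The genes added were Ccnd1 (adjusted p = 0.013), Ccnd2 (0.018), Cdkn3 (0.0014), Cks1b (0.014) and Cks2 (0.034). Whether fold changes differ between the parts was not tested.

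**Figure D3:**
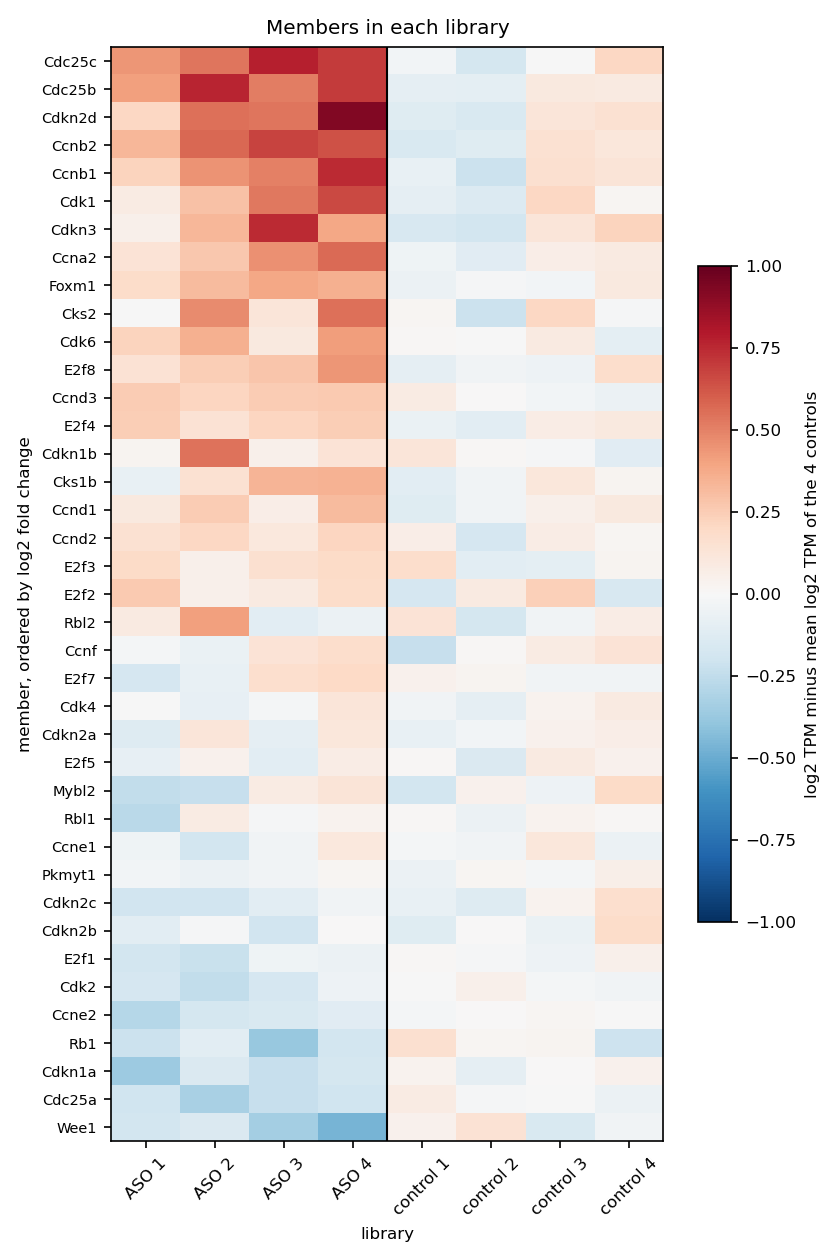
Log2 TPM of the 39 genes (rows, ordered by log2 fold change) in the 4 ASO and 4 control libraries (columns), minus the mean log2 TPM of the 4 controls. The upper rows are red in all ASO libraries and deepest in ASO libraries 3 and 4 for Cdk1 and Ccna2, and the lowest rows, Wee1, Cdc25a and Cdkn1a, are blue in all 4.

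In TPM, all 4 ASO libraries lay above all 4 control libraries in 11 of the 39 genes, against 8.28% of all tested genes, and below them in 4, against 10.3%. The 11 included Ccnd2, which did not pass the test, and lacked the called genes Cdk1 and E2f8. The 4 were Ccne2, Cdk2, Cdkn1a and Cdc25a, of which Cdkn1a and Cdc25a passed the test. By level per length, Cdkn2a and Cdk4 led the 39 in both groups, followed by Cks1b (303 ± 40.7 TPM in ASO libraries, 264 ± 17.4 TPM in control libraries), Cdkn1a (232 ± 15.3 TPM, and 272 ± 11.3 TPM in controls) and Ccnd3. Cks1b stood above Cdkn1a in the mean of ASO libraries and below it in the mean of controls, with overlapping SDs in the controls. The 3 D-type cyclin genes summed to 203 ± 4.93 TPM in ASO libraries and 174 ± 3.03 TPM in control libraries (SD, n = 4), most of it from Ccnd3. Ccnb1 and Ccnb2 summed to 169.8 ± 19.54 TPM with the ASO and 118 ± 13.3 TPM in controls.

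Other genes of the cell cycle were read from lists with none of the 39 in them. The background for each list is the share of all tested genes, 7.11% higher and 7.53% lower. Among 40 known targets of FOXM1, B-MYB and MuvB in G2 and mitosis 36 were higher and 0 lower, with a median log2 fold change of 0.44, and all 40 had a positive value. Plk1, a mitotic kinase gene, averaged 64.6 ± 6.86 TPM in ASO libraries and 39.3 ± 1.83 TPM in control libraries (log2 fold change 0.74 ± 0.08, adjusted p = 1.1e-04), and Cenpf and Hmmr rose by 0.60 ± 0.07 and 0.55 ± 0.07. The 4 that did not pass were Bub3, Mad2l1, Hjurp and Sgo1. Among 32 known E2F targets of G1/S 0 were higher and 4 were lower (12.5%, against 7.53% of all tested genes, median -0.06). These counts moved with the setting, to 1 higher and 7 lower with DESeq2 and to 2 higher and 8 lower with the sample division as a term, and the lower calls dropped to 1 without control replicate 2 and 2 without control replicate 4. The 4 were the histone mRNA-binding gene Slbp (-0.26 ± 0.06, adjusted p = 0.012), the replication licensing gene Cdt1 (-0.25 ± 0.06, adjusted p = 0.019), the uracil glycosylase gene Ung (-0.43 ± 0.11, adjusted p = 0.022) and the mismatch repair gene Msh6 (-0.19 ± 0.06, adjusted p = 0.034). The contrast of these lists was already known from earlier results of these data and is not independent support.

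Of 25 subunits and cofactors of the ubiquitin ligases APC/C and SCF 4 were higher and 0 lower (median 0.08). These are 16% and 0%, against 7.11% and 7.53% of all tested genes. Ube2c, the ubiquitin-conjugating enzyme gene of APC/C, averaged 650.1 ± 64.2 TPM with the ASO and 458 ± 11.9 TPM in controls (log2 fold change 0.53 ± 0.08, adjusted p = 7.5e-04). Cdc20 and Fzr1, which encode the activators of APC/C, rose by 0.49 ± 0.10 and 0.37 ± 0.08, and Ube2s by 0.31 ± 0.07. Ube2c and Cdc20 are also in the list of G2 and mitosis. Of 9 genes of the MuvB core, the DP partners of E2F, E2f6 and Mybl1, only Lin37 passed (0.25 ± 0.07, adjusted p = 0.035), and the median of -0.14 had the opposite sign. The call of Lin37 ended without ASO replicate 3 or 4 or control replicate 1, 2 or 4. Of 27 cyclins and CDKs of transcription and other roles Cdk17 was lower (-0.36 ± 0.08) and Ccng1, a p53 target, higher (0.25 ± 0.07). That of Ccng1 ended without ASO replicate 2 or 4 or control replicate 2 or 4. Of 17 mitogen pathway genes upstream of the D-type cyclins Egfr was lower (-0.17 ± 0.05, adjusted p = 0.042) and 0 were higher. The call of Egfr ended without ASO replicate 1, 3 or 4, without any of the control replicates, with upper-quartile or library-size scaling, with no filter on low counts and on each log2 TPM scale. The share called higher in the MuvB list was 11.1%, from Lin37 alone. The list of transcription and other roles had 3.70% called in each direction, and the mitogen list 5.88% lower. Both lists were below the shares of all tested genes.

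**Figure D4:**
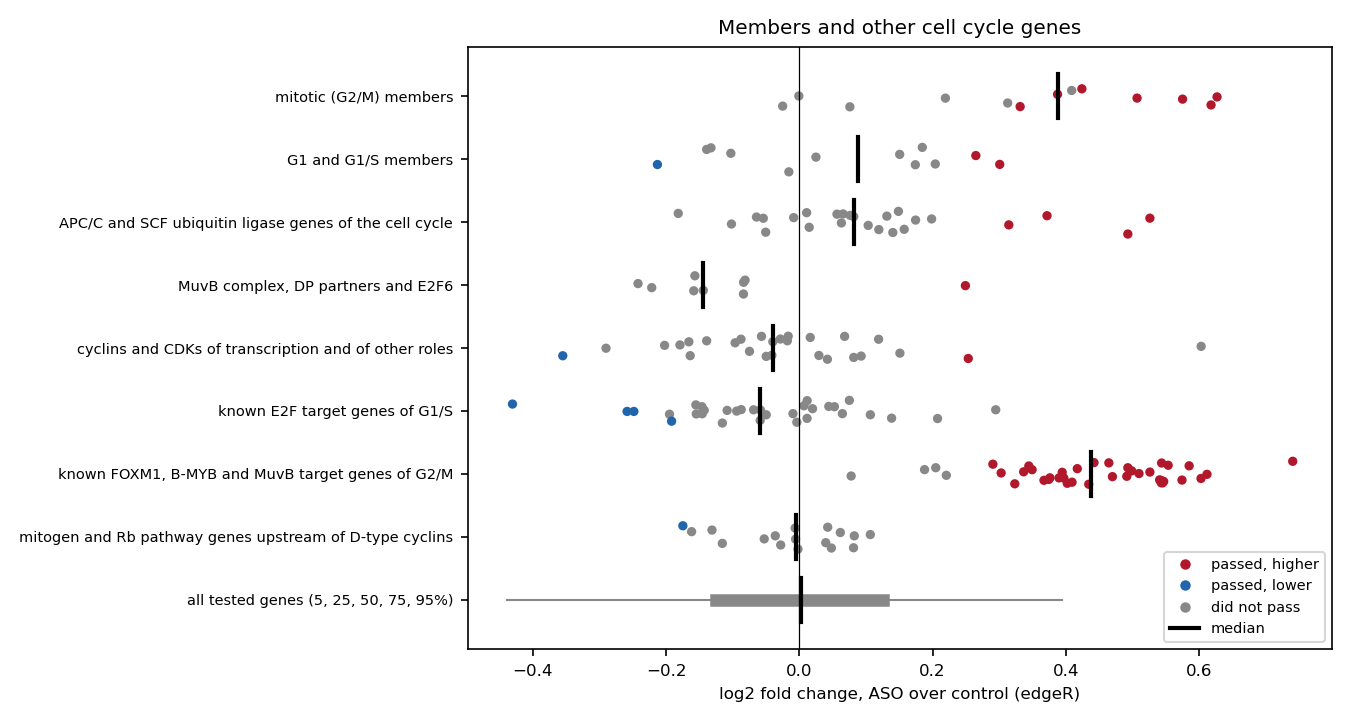
Log2 fold change, ASO over control (horizontal axis), of the genes listed for G2 and mitosis, those listed for G1 and its exit, and 6 further lists, 1 point per tested gene (red passed and higher, blue passed and lower, grey did not pass) with the median as a black bar. The bottom row gives the 5th, 25th, 50th, 75th and 95th percentiles of all 12227 tested genes.

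Leaving out 1 library at a time gave 8 to 16 higher and 0 to 2 lower calls among the 39. The counts over all tested genes moved as well between these fits, and their range is given in the last section. The count of higher calls was 8 without ASO replicate 4 or control replicate 2, and 16 without ASO replicate 1. The count of lower calls was 0 without ASO replicate 3, control replicate 1 or control replicate 4, was 1 without ASO replicate 4, control replicate 2 or control replicate 3, and was 2 without ASO replicate 1 or 2. Ccna2, Ccnb1, Ccnb2, Ccnd3, Cdkn2d, Cdc25b, Cdc25c and Foxm1 were called in all 8 of these fits, whereas Cdk1, Cdk6, E2f4, E2f8, Cdkn1a, Cdc25a and Wee1 were not. Of the 8, Ccna2 and Cdkn2d missed the threshold on log2(TPM + 1) with no filter (limma, adjusted p = 0.054 for each).

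**Figure D5:**
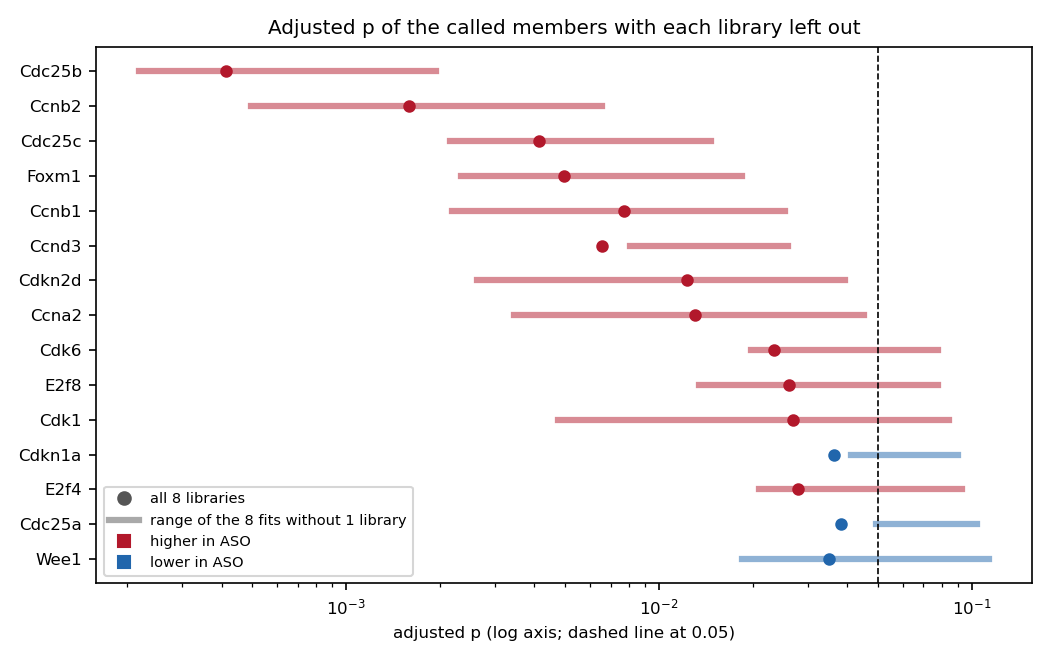
Adjusted p (log axis) of the 15 called genes in the fit of all 8 libraries (points) and its range over the 8 fits that each left out 1 library (bars), red for genes higher and blue for genes lower in ASO, with a dashed line at 0.05. The bars of 8 genes end left of the line, and those of Cdk6, E2f8, Cdk1, Cdkn1a, E2f4, Cdc25a and Wee1 cross it.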

How the data were processed

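RNA-seq of 4 ASO and 4 control libraries of MLO-Y4 cells was read from 1 deposited table. Group and replicate number came from the sample titles. The submitters' processing notes name HISAT and Bowtie2 and, as builds, mm10 and GRCm38.p6. How reads were counted, and whether by strand, is not given in the sources used here, so reads of overlapping antisense genes cannot be told apart. The authors deposited estimated counts, TPM and FPKM per library, per the file headers. Levels are the authors' TPM as deposited, and FPKM and the deposited means were not used. Estimated counts were rounded to whole numbers, and those of the 39 genes were whole in every library. Counting error alone limits a gene with 0 reads to 3 reads.

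The main test was the quasi-likelihood F test of edgeR 4.0.16 (R 4.3.3) after filterByExpr and TMM scaling, and the model held group alone. Log2 fold changes are ASO over control, standard errors come from the F statistic, and 95% intervals from the test's degrees of freedom. Alternatives were DESeq2 1.42.0, limma 3.58.1 on counts or log2 TPM, other scalings, filters and thresholds, a replicate block, a term for samples 1 and 2 against samples 3 and 4, each part alone, and each library left out. The 39 genes, the gene lists and the tests were chosen with earlier results of these data known. Per-library values are given for genes that passed and for Ccnd1, Ccne1, Cdk2, Cdk4, Cdk6, Cdkn1a, Cdkn1b, Cdkn2a, Rb1, E2f1 and Foxm1, and from each further list up to 3 called genes with the smallest p. Genes named beyond these were chosen after their values were seen. Coordinates and promoters are from RefSeq, GRCm38.p6, matched by gene identifier.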

Additional observations from a re-analysis of the deposited data

How the results depend on the processing

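No direction of a called gene reversed. Of 935 comparisons of a single gene with its value under an alternative, 848 kept their side of the threshold, 67 calls ended and 20 were gained. The count of higher genes among the 39 was 12, and 6 on log2(TPM + 1) with no filter or at an adjusted p under 0.01. That of lower genes was 3, but 1 with library-size scaling, 0 in samples 1 and 2 alone, 1 in samples 3 and 4 alone and 0 at an adjusted p under 0.01. Over all tested genes, 869 were higher and 921 lower. On log2(TPM + 0.1) 573 were higher, on log2(TPM + 1) with no filter 554 were higher and 613 lower, and at an adjusted p under 0.01 346 were higher and 356 lower. With the sample division as a term 1560 were higher and 1576 lower, and in samples 1 and 2 alone 507 and 529. Leaving out 1 library (lowest without control replicate 2, and also under the main counts by more than 1.5 times without ASO replicate 3 or 4) gave 538 to 965 higher and 567 to 975 lower genes, and 8 to 16 higher and 0 to 2 lower among the 39. The causes were not tested. Scaling moved the median of all genes by less than 0.02. Same-numbered libraries had correlations of 0.05 to 0.21 between groups, and that of number 1 was below 0.1. Pairing by number was thus not shown, and these weak positive values cannot exclude it. Of the ASO libraries only number 3 correlated best with the control of its own number (0.21). ASO library 1 correlated best with control 2 (0.24), ASO library 2 with control 1 (0.22) and ASO library 4 with control 3 (0.25). The replicate block gave 16 higher and 3 lower genes among the 39, and 1267 higher and 1308 lower over all genes. Precision was lowest for E2f2, with 53 to 79 reads per library, an SE of 0.16 and an interval of 0.880-fold to 1.40-fold, and E2f2 was not tested under the filter of 5 CPM.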
